A study of Mus musculus with 2 samples.

Results

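Cxcl1, Cxcl2, Cxcl3, Cxcl5, Ppbp and Pf4 are 6 of the 32285 genes measured by single-cell RNA sequencing (scRNA-seq) in acutely injured mouse quadriceps. They were chosen by gene symbol as CXC chemokine genes known for their link to neutrophils, and their transcripts were traced to the cell types that held them. All cells came from WT C57BL/6J male mice, 14 weeks old, whose right quadriceps had been injected with BaCl2, a myotoxic salt that kills myofibers. Muscle was collected at day 1 or day 3 after injury, and uninjured and dystrophic muscle of the study was not analysed here. Each day is 1 library of mononuclear cells pooled from 5 mice, gated by scatter to leave out dead cells and cell duplexes and frozen before capture. With 1 library per day there is no replicate error, no test could be made and no p-value is given. Every interval below is a 95% interval for counting error only, and the differences between the days cannot be told apart from differences between the libraries.

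The libraries held 74852240 unique molecular identifiers (UMIs, counted transcripts) on day 1 and 102565783 on day 3, and 6735 and 4627 barcodes passed as cells with medians of 9389 and 14548 UMIs. The libraries shared no cell barcode. Day 3 stood apart in quality, since 30.3% of its candidate cells exceeded the limit of 7.5% mitochondrial UMIs, against 7.02% on day 1. The barcode lists also differ in length, 737280 against 6794880, so the library chemistry may differ with the day. Cells fell into 14 clusters, named by fixed marker lists and with the ending -like because the names were rebuilt from the counts. Monocyte/macrophage-like cells numbered 3411 on day 1 and 2808 on day 3, neutrophil-like cells 2076 and 262, and fibroblast/FAP-like cells 660 and 845, FAPs being the fibro-adipogenic progenitors of muscle. Satellite cell/myoblast-like cells, the myogenic cells, numbered 5 and 204, and a cluster led by H2-Eb1 with antigen presentation genes, 493 and 441 cells, stayed unnamed. An endothelial-like cluster of 90 and 67 cells carried endothelial markers without T/NK cell markers in 72 of its cells on day 1 but in 16 on day 3, where 30 carried T/NK cell markers, and its days were not compared. Neutrophil-like cells were the shallowest, with medians of 2155 and 1653 UMIs, against 11140 and 13848 in monocyte/macrophage-like and 27648.5 and 25633 in fibroblast/FAP-like cells.

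CXC chemokines are small secreted proteins that bind matrix and guide leukocytes along gradients. Cxcl1, Cxcl2, Cxcl3, Cxcl5 and the processed product of Ppbp carry a glutamate-leucine-arginine motif and act on the receptor Cxcr2, by which neutrophils leave the blood and enter injured tissue. Pf4, platelet factor 4, lacks that motif and is not a classical Cxcr2 ligand. Ppbp and Pf4 are textbook genes of megakaryocytes and platelets, whereas the others are induced through NF-kB in many cell types by injury signals and by cytokines such as IL-1.

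The 6 genes lie on the same strand within 146.579 kb of chromosome 5 in the GRCm38 build, in the order Cxcl5 (chr5:90759360-90761624), Ppbp (chr5:90768518-90770063), Pf4 (chr5:90772435-90773383), Cxcl3 (chr5:90786103-90789600), Cxcl1 (chr5:90891241-90893115) and Cxcl2 (chr5:90903871-90905938). Ppbp and Pf4, the platelet genes, are neighbours, and Cxcl1 and Cxcl2 are neighbours. The promoter stretch from 140 to 31 bases before the start of transcription is shown, plus strand, from RefSeq sequences of GRCm38.p6, since the members differ there in a run of bases that holds an NF-kB motif. RefSeq promoters were matched for 5 of the 6 members, all but Cxcl5. Capitals mark GGGAATTTCCC, the longest run that at least 3 of these stretches share, searched on both strands.
Cxcl1, chr5:90891105-90891214: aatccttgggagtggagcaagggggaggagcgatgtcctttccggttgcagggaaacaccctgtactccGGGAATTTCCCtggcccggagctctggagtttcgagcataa
Cxcl2, chr5:90903759-90903868: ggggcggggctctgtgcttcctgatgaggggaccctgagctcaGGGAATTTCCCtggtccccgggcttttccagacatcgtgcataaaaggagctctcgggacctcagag
Cxcl3, chr5:90785961-90786070: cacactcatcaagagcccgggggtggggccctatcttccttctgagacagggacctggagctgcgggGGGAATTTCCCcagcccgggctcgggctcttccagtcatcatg
Ppbp, chr5:90768378-90768487: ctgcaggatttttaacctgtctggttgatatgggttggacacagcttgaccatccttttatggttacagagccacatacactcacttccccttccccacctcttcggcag
Pf4, chr5:90772295-90772404: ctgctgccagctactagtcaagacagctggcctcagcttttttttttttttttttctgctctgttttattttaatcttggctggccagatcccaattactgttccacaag

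The run starts 71 bases before the RefSeq start in Cxcl1, 97 before it in Cxcl2 and 73 before it in Cxcl3, and these letters are not in the Ppbp or Pf4 stretch. It was picked for being shared, so its presence in these members is a description. Among 32851 mouse promoters of 300 bases, 14, or 0.0426%, held it on either strand. In Cxcl1 and Cxcl2 the shared run extends to 14 bases, GGGAATTTCCCTGG. A match describes the letters only and is not shown to be a bound site.

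The genes that carry this run also carry AU-rich nonamers, letters known from short-lived transcripts, in their 3′ untranslated regions. TTATTTATT occurred 4 times in Cxcl2, 2 times in Cxcl1 and once in Cxcl3, and not in Cxcl5, Ppbp or Pf4, while 6.71% of 20756 coding genes held it. The first site of each is given, with the nonamer in capitals.
Cxcl1: tttatgtatTTATTTATTccacaaagt
Cxcl2: agagttcacTTATTTATTtatctatgt
Cxcl3: tatcagttgTTATTTATTgaaatggtc

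Runs of 31 identical bases, the kind in which reads of paralogs could be exchanged, were shared only by Cxcl2 and Cxcl3 (161 runs), and none lay in the last 500 bases, where 3′ libraries mostly read.

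Cxcl2 was the most abundant member over all cells, and its highest level was in neutrophil-like cells on both days. Levels are given as CPM, the UMIs of a gene per 1000000 UMIs of all cells of a group pooled, and because 3′ libraries count each molecule once, they can be set side by side between genes without a length correction. In neutrophil-like cells Cxcl2 stood at 57232 CPM on day 1 (57025 to 57440) and 34318 CPM on day 3 (33905 to 34735), or 5.72% and 3.43% of all transcripts of these cells. In monocyte/macrophage-like cells it stood at 23910.5 and 2599 CPM, in the H2-Eb1-led cluster at 13557 and 2570 CPM, in endothelial-like cells at 9928 and 678 CPM and in fibroblast/FAP-like cells at 2763 and 875 CPM. Satellite cell/myoblast-like cells of day 3 were lowest, at 120.0 CPM. On day 3 the intervals of monocyte/macrophage-like cells (2584 to 2614) and of the H2-Eb1-led cluster (2526 to 2614) overlapped, so these neighbours in the order did not differ beyond counting error.

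Cxcl2 was also nearly universal among the leukocytes of day 1. It was seen in 99.9% of neutrophil-like and 99.7% of monocyte/macrophage-like cells on day 1, and in 97.3% and 83.7% on day 3. Thinned to 1000 UMIs per cell, which left out no neutrophil-like cell, the share was 99.9% and 93.9% in these cells. As a background for day 3, satellite cell/myoblast-like cells, at a median of 44240.5 UMIs, held a Cxcl2 UMI in 50.5% of cells. After thinning to 3000 UMIs the share was 7.84%, against 74.0% of monocyte/macrophage-like cells of day 3. On day 1 Cxcl2 was also seen in 90.2% of fibroblast/FAP-like and 73.3% of endothelial-like cells. Thinned to 1000 UMIs, these shares were 44.8% and 56.7%, against 97.8% of monocyte/macrophage-like cells of day 1. Detection on day 1 was thus not limited to the cells named as leukocytes, but these shares do not show which cells made the transcript. Cells that also carried monocyte/macrophage markers held 66.9% of the Cxcl2 UMIs of fibroblast/FAP-like and 76.3% of those of endothelial-like cells. In the other fibroblast/FAP-like cells Cxcl2 is not told apart from free RNA, as described below.

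Cxcl3, a close relative of Cxcl2, was shared by the same cell types on day 1 and was nearly gone on day 3. On day 1 monocyte/macrophage-like cells stood at 3226 CPM (3208 to 3244) and neutrophil-like cells just below, at 3137 CPM (3089 to 3186), followed by endothelial-like cells at 1262 CPM, the H2-Eb1-led cluster at 1125 CPM and fibroblast/FAP-like cells at 580 CPM. On day 3 the order was headed by neutrophil-like cells at 494 CPM (446 to 547), ahead of the H2-Eb1-led cluster at 23.1 CPM (19.1 to 27.7) and monocyte/macrophage-like cells at 21.7 CPM (20.4 to 23.1), whose intervals overlap. Fibroblast/FAP-like cells stood at 8.71 CPM on day 3 and satellite cell/myoblast-like cells at 0.77 CPM, from 7 UMIs. At 3000 UMIs per cell, the share of monocyte/macrophage-like cells with Cxcl3 was 73.6% on day 1 and 4.74% on day 3, and no satellite cell/myoblast-like cell of day 3 held it.

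Cxcl1, the mouse counterpart of the GRO chemokines, was highest in stromal rather than in myeloid cells. Fibroblast/FAP-like cells stood at 2863 CPM on day 1 (2839 to 2887) and 1288 CPM on day 3 (1274 to 1303), above monocyte/macrophage-like cells at 1959 and 157 CPM and the H2-Eb1-led cluster at 1338 and 130 CPM. Endothelial-like cells stood at 792 and 117 CPM, and neutrophil-like cells at 605 and 388 CPM. Thus neutrophil-like cells were the lowest in Cxcl1 among the types compared on day 1 and the second highest on day 3. On day 3 the endothelial-like interval (88.0 to 154) overlapped those of the H2-Eb1-led cluster (120 to 140) and of satellite cell/myoblast-like cells, which stood at 98.9 CPM (92.6 to 106).

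Cxcl5 was a fibroblast/FAP gene in these muscles. Fibroblast/FAP-like cells held 2676 CPM on day 1 (2653 to 2700) and 291 CPM on day 3 (284 to 298). On day 1, the other groups lay between 15.4 CPM in neutrophil-like and 48.7 CPM in endothelial-like cells, the latter from 42 UMIs. On day 3 they lay between 0.77 CPM in satellite cell/myoblast-like and 24.4 CPM in endothelial-like cells. Monocyte/macrophage-like cells (25.7 CPM, 24.2 to 27.3) and the H2-Eb1-led cluster (20.9 CPM, 17.5 to 24.8) overlapped on day 1. At 3000 UMIs per cell Cxcl5 was seen in 67.9% of fibroblast/FAP-like cells on day 1 and 29.5% on day 3, against 3.14% and 0.362% of monocyte/macrophage-like cells.

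The platelet genes Pf4 and Ppbp were both highest in monocyte/macrophage-like cells. Pf4 stood there at 5956 CPM on day 1 (5932 to 5980) and 2515 CPM on day 3 (2500 to 2530), and Ppbp at 677 CPM (669 to 686) and 9.80 CPM (8.90 to 10.8). Ppbp reached 471 CPM in endothelial-like cells, 116 CPM in the H2-Eb1-led cluster, 57.5 CPM in fibroblast/FAP-like cells and 9.35 CPM in neutrophil-like cells on day 1. On day 3 it stood at 1.30 CPM or lower outside monocyte/macrophage-like cells, and at 0 of 451308 UMIs in endothelial-like cells, which allows up to 6.65 CPM. Pf4 outside monocyte/macrophage-like cells ranged on day 1 from 110 CPM in neutrophil-like to 2971 CPM in endothelial-like cells, and on day 3 from 40.9 CPM in satellite cell/myoblast-like to 1041 CPM in neutrophil-like cells.

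Genes that define platelets were at or near 0 in monocyte/macrophage-like cells. Of the platelet and megakaryocyte markers, 3 had a UMI in these cells on day 1 and 4 on day 3, with a summed level of 0.328 and 1.75 CPM. Gp9, Gp6 and Tubb1, which platelets and their precursors express, were at 0 on both days. Ppbp and Pf4 were found in the same cells. At 3000 UMIs per cell, 22.1% of monocyte/macrophage-like cells of day 1 held both, 44.6% Pf4 only and 1.13% Ppbp only, while on day 3 1.81% held both and 67.6% Pf4 only.

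**Figure D1:**
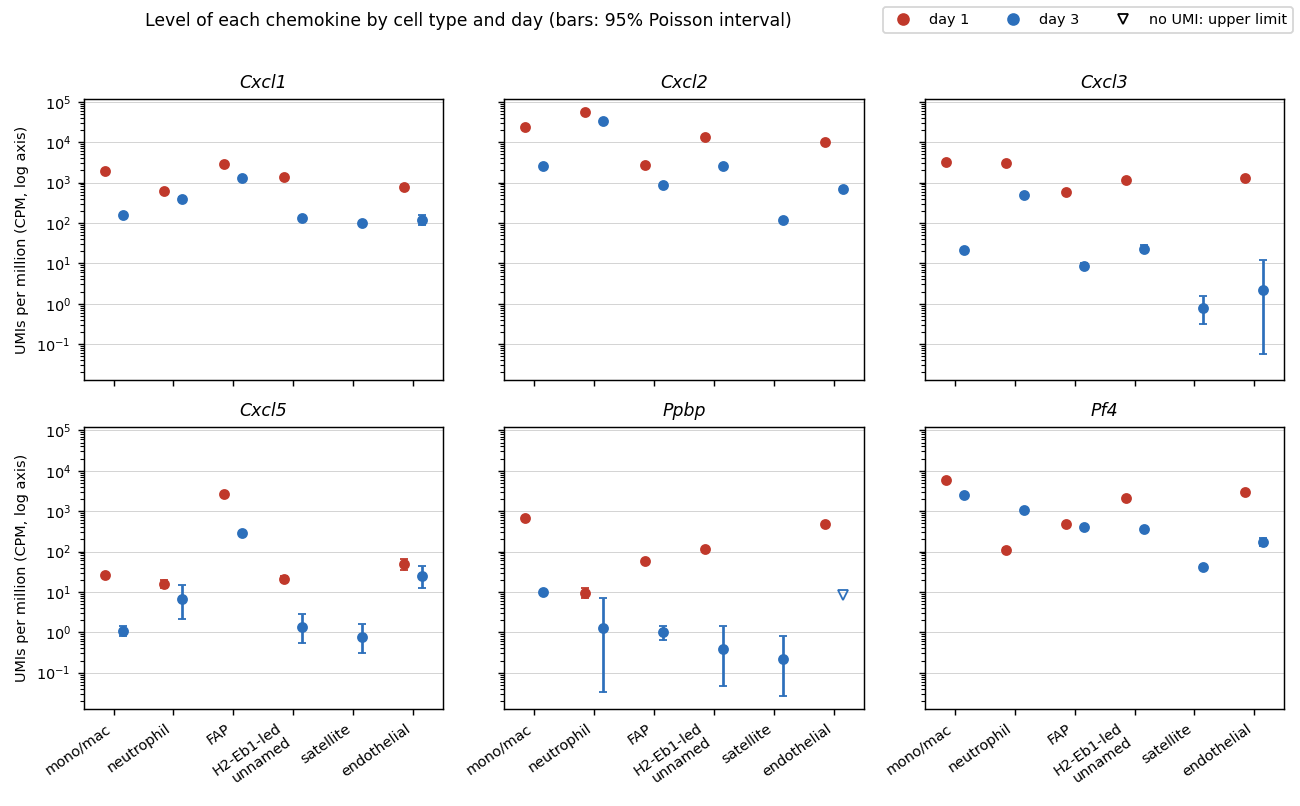
Level of each chemokine in 6 groups of cells on day 1 (red) and day 3 (blue), in CPM on a log axis, with 95% Poisson intervals as bars and an open triangle for the upper limit where no UMI was found. Cxcl2 is highest in neutrophil-like cells on both days, Cxcl1 and Cxcl5 in fibroblast/FAP-like cells, and Pf4 is the one gene for which the blue point lies above the red one, in neutrophil-like cells.

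Taking the number and depth of the cells into account, 3 cell types supplied nearly all of these transcripts. The 6 genes together made up 6.11% of the UMIs of neutrophil-like cells on day 1, 3.58% of those of monocyte/macrophage-like and 0.942% of those of fibroblast/FAP-like cells. On day 3 these percentages were 3.62%, 0.530% and 0.287%. Neutrophil-like cells were shallower and fewer, and monocyte/macrophage-like cells held most of the summed UMIs, 69.5% on day 1 and 67.1% on day 3, against 15.4% and 7.92% in neutrophil-like and 8.74% and 19.7% in fibroblast/FAP-like cells. These percentages follow the cells recovered in the suspension, and fewer cells of a type cannot be told apart there from fewer transcripts per cell.

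The source differed between the genes and, for Cxcl1, between the days. Monocyte/macrophage-like cells held 53.9% of Cxcl1 UMIs on day 1 (53.6% to 54.1%) and 17.4% on day 3 (17.1% to 17.8%), whereas fibroblast/FAP-like cells held 37.6% and 77.8%. For Cxcl2 monocyte/macrophage-like cells held 68.3% and 65.1%, and neutrophil-like cells 21.1% and 14.8%. For Cxcl3 the neutrophil-like part was 9.86% on day 1 and 22.6% on day 3 (20.6% to 24.7%), of totals of 163329 and 1682 UMIs. With cells called from 10% of the 99th percentile of UMIs, the neutrophil-like part on day 1 was 4.10% of Cxcl2 and 1.69% of Cxcl3.

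Sources of the remaining members were single cell types. Fibroblast/FAP-like cells held 97.5% of Cxcl5 UMIs on day 1 and 98.9% on day 3, and monocyte/macrophage-like cells held 92.2% and 93.8% of Ppbp and 90.3% and 89.7% of Pf4. The fibroblast/FAP-like part of Cxcl1 moved by more than 1.5 times with a pair of settings. With the quality limit read as at least 200 genes per 1000 UMIs it was 8.08% on day 1, and with each library clustered on its own it was 21.6% on day 3, where the fibroblast/FAP-like part of Cxcl5 was 19.1%.

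**Figure D2:**
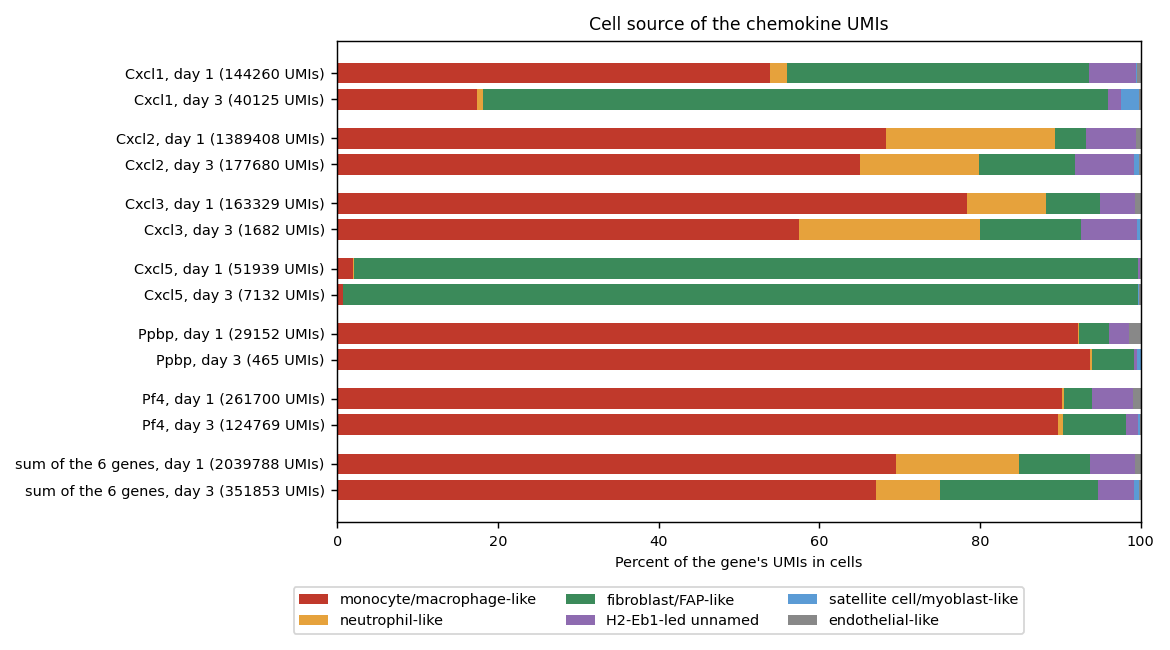
Percent of the UMIs of each chemokine, and of their sum, held by each group of cells on each day, with the total UMIs in the row labels. Monocyte/macrophage-like cells (red) hold most of Cxcl2, Cxcl3, Ppbp and Pf4 on both days, fibroblast/FAP-like cells (green) hold 97.5% and 98.9% of Cxcl5, and for Cxcl1 the green part is 37.6% on day 1 and 77.8% on day 3.

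The comparison between the days asks how far the levels in each cell type differed between day 1 and day 3 of the inflammation. A ratio was called where day 3 and day 1 differed by at least 2-fold. All 6 members were lower on day 3 in monocyte/macrophage-like cells, where 5.01% of 7963 genes with at least 500 UMIs were lower. The log2 ratios of the CPM levels (day 3 divided by day 1) were -7.21 for Cxcl3 (-7.31 to -7.12), -6.11 for Ppbp (-6.25 to -5.98) and -4.56 for Cxcl5 (-5.02 to -4.16). It was -3.64 for Cxcl1 (-3.68 to -3.61), -3.20 for Cxcl2 (-3.21 to -3.19) and -1.24 for Pf4 (-1.25 to -1.23). The median over the members was -4.10, and over all genes 0.35. Cxcl3 was thus 149-fold lower and Pf4 2.37-fold lower in the same cell type. For Pf4 the share of cells at 3000 UMIs was 66.7% on day 1 and 69.4% on day 3, which goes against its CPM, so no order is read from the shares.

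In fibroblast/FAP-like cells 5 of 6 members were lower on day 3, where 8.12% of 7570 genes were lower. The log2 ratio was -6.06 for Cxcl3 (-6.26 to -5.86), -5.83 for Ppbp (-6.51 to -5.28) and -3.20 for Cxcl5 (-3.24 to -3.16), and smaller for Cxcl2, -1.66 (-1.68 to -1.64), and Cxcl1, -1.15 (-1.17 to -1.13). Pf4 differed by less than 2-fold, at -0.26, but ranged from -3.10 to 1.53 over 14 alternatives, 10 of them with the same sign. Cxcl1 was under 2-fold, at -0.54, with the quality limit read as at least 200 genes per 1000 UMIs, and at -0.73 with each library clustered on its own. Cxcl2 was just under 2-fold, at -0.98, with free RNA subtracted. The median over the members was -2.43, and over all genes 0.16. In the H2-Eb1-led cluster all 6 members were lower, where 5.48% of 2865 genes were lower, with log2 ratios from -2.40 for Cxcl2 to -7.88 for Ppbp (-11.25 to -6.34), the latter from 739 and 2 UMIs.

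In neutrophil-like cells Cxcl2 and Cxcl1 stayed under 2-fold between the days. Cxcl2 had a log2 ratio of -0.74 (-0.76 to -0.72) and Cxcl1 of -0.64 (-0.82 to -0.47). Cxcl3 was lower by 2-fold or more, at -2.66 (-2.82 to -2.52), as were Cxcl5 at -1.11 (-2.90 to 0.04) and Ppbp at -2.28 (-8.18 to -0.30), the last pair resting on 5 and 1 UMIs on day 3. In these cells 19.9% of 1353 genes were lower and 12.3% higher. Among 4131 genes with at least 100 UMIs the balance was the other way, with 10.2% lower and 26.9% higher, and Cxcl5 and Ppbp have fewer UMIs than either limit. Pf4 was higher, at 3.25 (3.09 to 3.40), but its direction turned to -4.39 with each library clustered on its own, to -3.85 with cells named by their highest marker score and to -0.49 without the cells that carried monocyte/macrophage markers. Over all cells, with 4.75% of 10281 genes lower, all 6 members were lower, with log2 ratios of -6.84 for Cxcl3, -6.21 for Ppbp, -3.21 for Cxcl2, -3.11 for Cxcl5, -2.09 for Cxcl1 and -1.31 for Pf4.

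**Figure D3:**
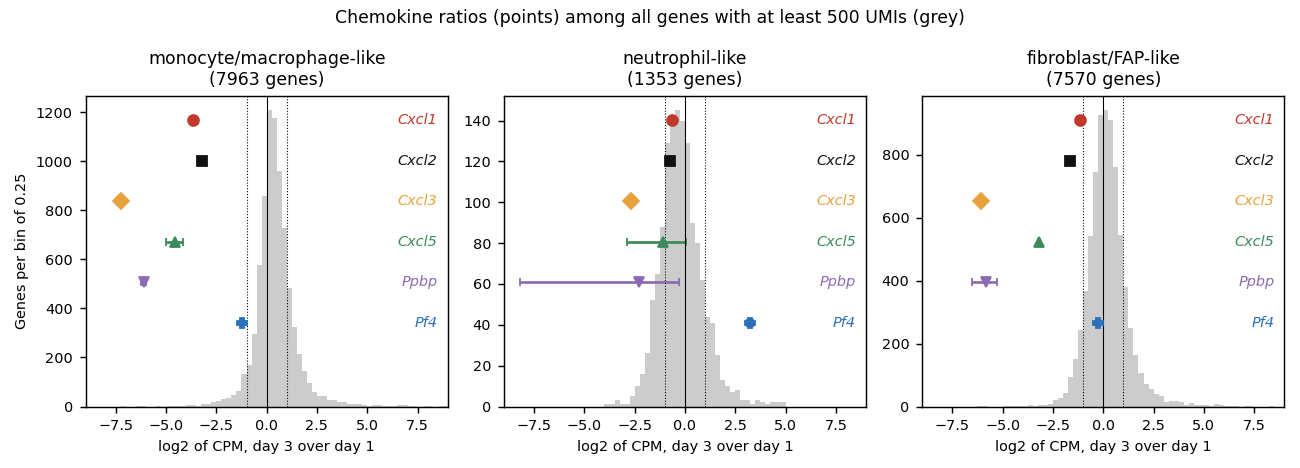
Log2 ratio of the CPM levels (day 3 divided by day 1) of each chemokine (points with 95% intervals, placed at arbitrary heights) over the histogram of all genes with at least 500 UMIs in the cell type (grey), with dotted lines at 2-fold. In monocyte/macrophage-like cells all 6 points lie left of the dotted line, in neutrophil-like cells Cxcl1 and Cxcl2 lie between the lines and Pf4 lies right of them at 3.25, and in fibroblast/FAP-like cells Pf4 alone lies between the lines.

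Different clusters held these cell types on the 2 days. Monocyte/macrophage-like cells were mainly Arg1-led, Plcb1-led and Cd163-led on day 1 and Fcrls-led, Ifi213-led and Gpnmb-led on day 3, and an Ifitm6-led cluster with the monocyte genes Plac8 and Ly6c2 was present on both. Fibroblast/FAP-like cells were Il1rl1-led on day 1 and Sfrp2-led on day 3. The members were kept out of the genes used for clustering, but Cxcl3 and Ppbp were among the 10 leading genes of the Arg1-led cluster and Cxcl5 among those of the Il1rl1-led one.

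Within monocyte/macrophage-like cells of day 1 the members peaked in different clusters, and since some of them are among the leading genes the levels are given as a description. Cxcl3 was highest in Arg1-led cells, at 4242 CPM, then 2154 CPM in Plcb1-led, 514 CPM in Ifitm6-led and 381 CPM in Cd163-led cells. Cxcl2 followed the same first steps, with 26858 CPM in Arg1-led, 22478 CPM in Plcb1-led, 13676 CPM in Cd163-led and 9969 CPM in Ifitm6-led cells. Cd163, a haemoglobin scavenger receptor, and Lyve1 are known from resident macrophages, and Cd163-led cells had the highest Pf4, Ppbp and Cxcl5. Their Pf4 level was 15334 CPM, against 7884 CPM in Arg1-led, 1988 CPM in Plcb1-led and 104 CPM in Ifitm6-led cells, and every one of the 129 cells held a Pf4 UMI. Ppbp stood at 1050 CPM in Cd163-led and 901 CPM in Arg1-led cells, against 322 and 7.02 CPM in Plcb1-led and Ifitm6-led cells, and Cxcl5 at 217 CPM in Cd163-led cells, against 23.8 CPM or lower in the others.

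The monocyte-like Ifitm6-led cluster allowed the days to be compared within 1 cluster, of 221 and 300 cells. Cxcl2 stood there at 9969 and 5392 CPM, Cxcl3 at 514 and 38.1 CPM, Cxcl1 at 145 and 87.0 CPM, Pf4 at 104 and 40.4 CPM, and Ppbp at 16 UMIs and none. Cxcl2 was thus less than 2-fold lower within this cluster, while Cxcl3 was lower by more than 10-fold. Among the clusters of day 3, Pf4 was highest in Gpnmb-led cells, at 3533 CPM, then Fcrls-led at 2708 CPM and Ifi213-led at 1033 CPM, whereas Cxcl2 was lowest in Gpnmb-led cells, at 1394 CPM, and Cxcl1 highest in the 54 Plcb1-led cells, at 395 CPM, ahead of Fcrls-led cells at 206 CPM.

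Both neutrophil-like clusters, one led by Asprv1 with Il23a and one by Retnlg with Cxcr2, held Cxcl2 at a high level, and their order differed between the days. On day 1 Asprv1-led cells stood at 62724 CPM and Retnlg-led cells at 50465 CPM, and on day 3 at 30834 and 37917 CPM. These pooled levels include the neutrophil-like cells with monocyte/macrophage markers described below. On day 3 those 35 cells held Cxcl2 at 3475 CPM, against 65613 CPM in the rest. They were not split by cluster, and their part in the order of the clusters was not tested. Cxcl3 hardly separated them, at 3195 and 3065 CPM on day 1 and 494 and 495 CPM on day 3. Cxcl1 was 790 CPM in Asprv1-led and 376 CPM in Retnlg-led cells on day 1, and 382 and 394 CPM on day 3.

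**Figure D4:**
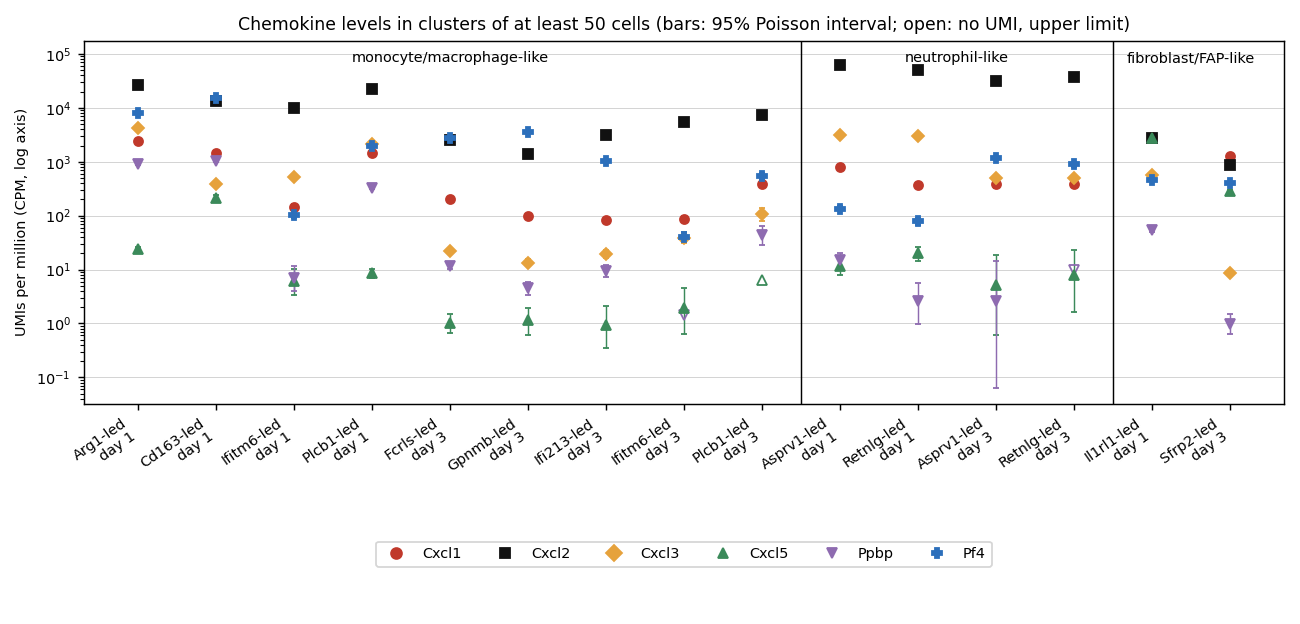
Level of the 6 chemokines in CPM (log axis) in each cluster with at least 50 cells on a day, by cell type and day, with 95% Poisson intervals as bars and open symbols for upper limits where no UMI was found. Pf4 (blue) is highest in Cd163-led cells of day 1, at 15334 CPM, and near 100 CPM or lower in Ifitm6-led cells, and Cxcl3 (orange) is highest in Arg1-led cells of day 1, at 4242 CPM.

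Some neutrophil-like, fibroblast/FAP-like and endothelial-like cells also carried monocyte/macrophage markers, and the chemokine levels moved with them. Cells with at least 3 UMIs of these markers and at least 10% of the median marker level of monocyte/macrophage-like cells were set apart, a split chosen after the values were seen. The summed level of the 10 markers in neutrophil-like cells was 309 CPM on day 1 and 3324 CPM on day 3, with all 10 present on both days, and was 4626 and 8884 CPM in monocyte/macrophage-like cells. Of the neutrophil-like cells, 78 of 2076 carried the markers on day 1 and 35 of 262 on day 3, the latter with a median of 10478 UMIs against 1584 in the rest.

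The 35 marker-carrying cells of day 3 held 98.1% of the Pf4 UMIs of the neutrophil-like type. In the remaining cells Pf4 stood at 56.9 CPM on day 1 and 39.3 CPM on day 3, a log2 ratio of -0.49 (-1.39 to 0.21), so the higher level of Pf4 on day 3 was not seen without them. Cxcl2 behaved in the opposite way. Without the marker-carrying cells it stood at 57966 CPM on day 1 and 65613 CPM on day 3, a log2 ratio of 0.18 (0.16 to 0.20), against -0.74 with them, so its direction depended on these cells. Cxcl1 stood at 624 and 582 CPM, with a log2 ratio of -0.10 (-0.31 to 0.10), and Cxcl3 at 3162 and 936 CPM, a ratio of -1.75 (-1.91 to -1.60), which was lower by 2-fold or more with and without these cells. Without them 7.67% of 1147 genes were lower by 2-fold or more.

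In fibroblast/FAP-like cells the split parted the members into those held mainly by marker-carrying cells and those that were not. The marker-carrying cells, 115 of 660 on day 1 and 219 of 845 on day 3, held 96.1% and 95.8% of the Pf4 UMIs of the type, 97.8% and 66.7% of the Ppbp UMIs and 66.9% and 62.4% of the Cxcl2 UMIs, but 21.9% and 26.2% of the Cxcl1 and 16.2% and 24.6% of the Cxcl5 UMIs. In the other cells Cxcl1 stood at 2929 and 1463 CPM, a log2 ratio of -1.0 (-1.02 to -0.98), and Cxcl5 at 2937 and 338 CPM, a ratio of -3.12 (-3.16 to -3.08). Cxcl2 stood at 1196 and 506 CPM there and Cxcl3 at 416 and 4.83 CPM, with ratios of -1.24 (-1.28 to -1.20) and -6.42 (-6.77 to -6.10), while Pf4 was at 24.3 and 25.8 CPM. Thus Cxcl2, Cxcl3 and Cxcl5 were lower by 2-fold or more in fibroblast/FAP-like cells without the markers as well, where 9.66% of 6317 genes were. The Cxcl2 ratio there rests on a day 1 level not told apart from free RNA, as described below. Ppbp had a ratio of -1.65 (-3.07 to -0.51) there, from 24 and 8 UMIs, against -5.83 in all fibroblast/FAP-like cells. Cxcl1 lay at the 2-fold line, which its interval spans. Neutrophil markers were not split off. Their summed level in all fibroblast/FAP-like cells was 608 CPM on day 1 and 75.4 CPM on day 3, and their part in the Cxcl2 ratio was not tested.

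In endothelial-like cells of day 1 the marker-carrying cells held most UMIs of 5 members. The 22 marker-carrying cells of 90 held 99.3% of Pf4, 98.8% of Ppbp, 93.3% of Cxcl3, 86.7% of Cxcl1 and 76.3% of Cxcl2 UMIs, but 4.76% of Cxcl5 UMIs. The other 68 cells held Cxcl2 at 4897 CPM (4686 to 5115), Cxcl1 at 220 CPM and Cxcl3 at 176 CPM. Neutrophil markers were not split off. Their summed level in the 90 cells was 2688 CPM, with at least 3 UMIs in 21 cells, and their part in these levels was not tested. Cxcl5 stood at 96.6 CPM in the 68 cells, from 40 UMIs in 5.88% of them.

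**Figure D5:**
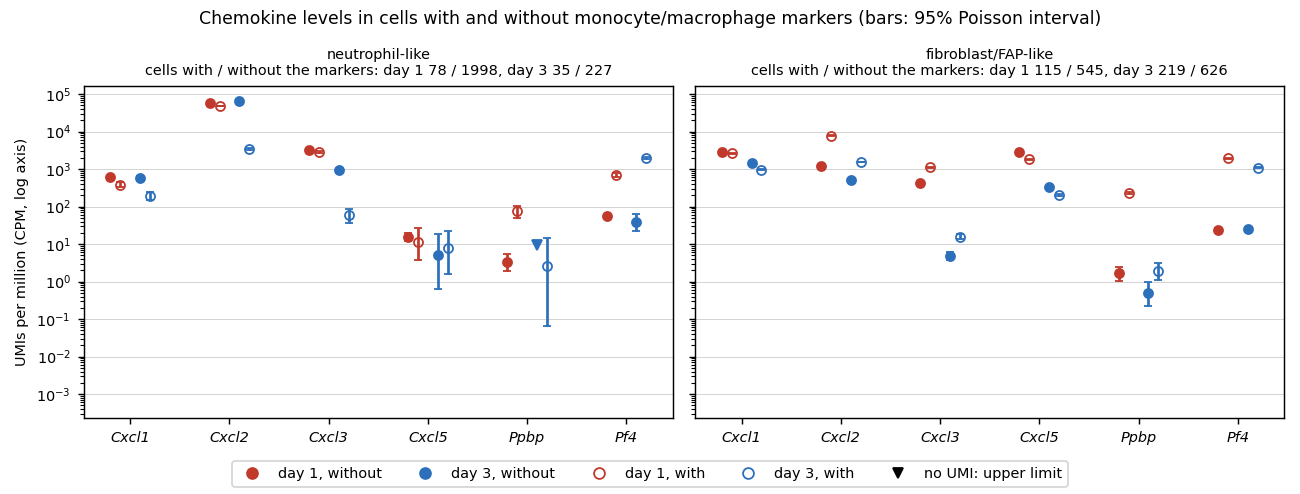
Chemokine levels in CPM (log axis) in neutrophil-like and fibroblast/FAP-like cells without (filled) and with (open) monocyte/macrophage markers, on day 1 (red) and day 3 (blue), with 95% Poisson intervals and a triangle for the upper limit where no UMI was found. In both cell types the open Pf4 symbols lie more than 10-fold above the filled ones, and Cxcl2 of neutrophil-like cells is 65613 CPM without and 3475 CPM with the markers on day 3.

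Free RNA was sampled in the near-empty barcodes, those of 100 UMIs or fewer, where Cxcl2 stood at 18238 CPM on day 1 and 2005 CPM on day 3, and Pf4 at 5183 and 1067 CPM. Markers of other cell types allow at most 8.60% of free RNA in neutrophil-like cells on day 1 and 23.3% on day 3, at most 6.77% and 4.98% in fibroblast/FAP-like and at most 2.06% and 1.85% in monocyte/macrophage-like cells. At these limits free RNA could supply 2.74% and 1.36% of the Cxcl2 level of neutrophil-like cells and 1.53% and 2.0% of the Cxcl5 level of fibroblast/FAP-like cells. For Pf4, Ppbp and Cxcl5 in neutrophil-like cells of day 1 and for Cxcl5 and Ppbp on day 3 the limit exceeds the measured level. It is an upper limit, so these levels are not told apart from free RNA. The limit was also 201% of the Cxcl5 level of monocyte/macrophage-like cells on day 3 and 121% in the H2-Eb1-led cluster. The Cxcl5 ratios of both thus rest on a day 3 level not told apart from free RNA. For Cxcl2 in fibroblast/FAP-like cells the limit was 44.7% of the level on day 1 and 11.4% on day 3. On day 1 this limit was 1236 CPM, beside 1196 CPM in those without monocyte/macrophage markers, so their Cxcl2 is not told apart from free RNA.

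Among single cells the members differed in how evenly they were spread. In neutrophil-like cells the 10% of cells with most Cxcl2 held 27.8% of its UMIs on day 1 and 24.2% on day 3, whereas for Cxcl1 the top 10% held 90.2% and 93.3%, with a Cxcl1 UMI in 20.2% and 17.2% of the cells. In monocyte/macrophage-like cells of day 1 the top 10% held 26.5% of Cxcl2, 44.9% of Cxcl3, 48.6% of Pf4, 54.2% of Cxcl1 and 83.7% of Ppbp UMIs. For Cxcl5, which had a UMI in 7.97% of these cells, the top 10% held 100%. Cxcl2 was thus the most evenly spread member in this cell type, and Cxcl5 and Ppbp were the most concentrated. In fibroblast/FAP-like cells the top 10% held 36.2% of Cxcl1 on day 1 and 34.3% on day 3, and 44.9% and 64.1% of Cxcl5.

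Pairs of members were described at 3000 UMIs per cell. In fibroblast/FAP-like cells 61.4% held both Cxcl1 and Cxcl5 on day 1, 21.5% Cxcl1 only and 6.48% Cxcl5 only. On day 3 25.1% held both, 51.2% Cxcl1 only and 4.33% Cxcl5 only. Most Cxcl5 cells were therefore Cxcl1 cells on both days. Of all fibroblast/FAP-like cells 82.9% held Cxcl1 on day 1 and 76.4% on day 3, so no particular pairing is read from this. In monocyte/macrophage-like cells of day 1 40.1% held both Cxcl1 and Cxcl3, 8.07% Cxcl1 only and 33.5% Cxcl3 only, and on day 3 1.56%, 13.4% and 3.19%. In neutrophil-like cells of day 1 at 1000 UMIs, 58.0% held both Cxcl2 and Cxcl3 and 0.0482% Cxcl3 only. Since 99.9% of all these cells held Cxcl2, no pairing is read from this.

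Cxcr2, the receptor for most of these ligands, was a neutrophil gene here. It stood at 523 CPM in neutrophil-like cells on day 1 (503 to 543) and 108 CPM on day 3 (86.0 to 134), and at 23.2 CPM or lower in the other groups. Its log2 ratio in neutrophil-like cells was -2.27 with the cells that carried monocyte/macrophage markers included, whose part was not tested. Cxcr1, the second receptor, stood at 11.5 CPM in neutrophil-like cells on day 1 and at 0 of 768541 UMIs on day 3, which allows up to 3.90 CPM. The scavenging receptor Ackr3 was a stromal gene, at 110 and 49.2 CPM in fibroblast/FAP-like cells.

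The rest of the pathway, 27 genes in all with the receptors, was listed by role. In monocyte/macrophage-like cells 14 of the 25 with at least 20 UMIs were lower on day 3 and 3 higher, with a median log2 ratio of -1.57. The inducing cytokines Il1a (-6.26), Il1b (-4.72), Il6 (-4.51), Csf3 (-4.42) and Tnf (-2.22) were all lower, as were Nfkbia (-2.46), the inhibitor of NF-kB, and Nfkbiz (-1.91). The CXC ligands Cxcl9 (4.66, 2.67 to 10.56, from 1 and 42 UMIs), Cxcl12 (2.95) and Cxcl16 (1.21), which act on other receptors, were higher. The remaining CXC ligands of the list were Cxcl13 (-3.97), which was lower, and Cxcl14 (-0.78) and Cxcl10 (0.33), both under 2-fold. Higher genes were common in this cell type, since 20% of all genes were higher on day 3, so 3 of 25 is not above that share, whereas 14 of 25 lower stands beside 5.01%.

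In fibroblast/FAP-like cells 8 of 26 pathway genes were lower and 5 higher, beside 8.12% and 16.2% of all genes, so the number of higher ones is near the share of all genes. The median log2 ratio was -0.40. The higher ones were Cxcl9 (3.74), Cxcl10 (3.40), Cxcl12 (2.14), Cxcl16 (1.14) and the IL-1 receptor gene Il1r1 (1.46). Cxcl13 (-2.05) and Cxcl14 (-1.37) were among the lower ones. In neutrophil-like cells 12 of the 23 with at least 20 UMIs were lower and 4 higher, with a median of -1.01. Beside them stand 19.9% lower and 12.3% higher among all genes with at least 500 UMIs. With at least 100 UMIs the shares were 10.2% and 26.9%, so the number of higher ones is not above both shares. All of these values include the neutrophil-like cells with monocyte/macrophage markers. Without those cells 7.67% of 1147 genes were lower. The pathway genes were not split, and the part of those cells in their ratios was not tested. Il1a (-1.84) and Tnf (-1.01) were lower, and Il1b (-0.98) stayed under 2-fold, like Cxcl2. The 4 higher ones, Cxcl12, Cxcl13, Cxcl14 and Cxcl16, had 63 UMIs or fewer on day 3, where the summed level of the 8 fibroblast/FAP markers in these cells was 1356 CPM, against 127 CPM on day 1, and the part of those cells in the result was not tested.

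Across the 11 groups of cell type and day with at least 50 cells, each member was compared with 10281 genes by Pearson's correlation of log2(CPM + 1), as a description, since groups share libraries. For Cxcl2 the most alike genes were Bcl2a1b (0.990), Clec4e (0.989) and Cebpb (0.987), a survival gene, a lectin receptor and a transcription factor of myeloid cells. For Cxcl3 they were the cytokine gene Il1a (0.961), Gm11713 (0.935) and Tarm1 (0.931), and for Ppbp Ccl24 (0.960), Arg1 (0.950) and Cers2 (0.937). Pf4 was most like F13a1 (0.962), Ccl12 (0.962) and Msr1 (0.949), genes of macrophages. Cxcl1 was most like Ost4 (0.968), Inhba (0.926) and Sra1 (0.913), and Cxcl5 like Slc39a7 (0.939), Il6 (0.930) and Thbs4 (0.913). Among the members, Cxcl2 and Cxcl3 were the most alike (0.913) and Cxcl2 and Cxcl5 the least (0.07).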

How the data were processed

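The authors deposited unnormalized UMI counts for every gene in every listed barcode, cells and empty droplets alike, from 2 libraries labelled as 10x Genomics 3′ v3.1 chemistry. Per the submitters' processing notes, reads were handled with Cell Ranger 5.0.0 and mm10, whereas the matrix headers name an earlier Cell Ranger, and the version is not settled. Whether intronic reads were counted is not given in the sources used here.

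Barcodes were ranked by UMIs and the top 7367 (day 1) and 6640 (day 3) were kept if they had at least 1000 UMIs, at least 200 genes and at most 7.5% mitochondrial UMIs. Scrublet, with its automatic threshold, called 1 doublet on day 1 and 0 on day 3. This had not worked, so doublets stayed in, and an alternative dropped the cells with the highest scores, 363 and 171 of them. SCTransform on cell cycle and mitochondrial covariates (sctransform 0.4.2 and Seurat 5.3.0 under R 4.3.3) and 10 PCs followed the study. The 3000 variable features, less the 6 members, the 27 pathway genes and all naming markers, and the resolution of 0.8 were set here. A cluster was named by the marker list it scored highest for, given at least 3 raised markers, and stayed unnamed where another list had more markers peaking in it.

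CPM have exact Poisson intervals and shares Clopper-Pearson intervals. For a ratio, 0.5 was added to both counts, and its interval is exact binomial. All are 95% intervals that cover counting error only. For a count of 0 the text gives a limit of 3 UMIs, while the figures draw the upper end of the Poisson interval, which is higher. For Ppbp in endothelial-like cells of day 3 these are 6.65 and 8.17 CPM. Cells below 3000 UMIs drop out on thinning, which removes 85.8% and 88.2% of neutrophil-like cells, so those were thinned to 1000. Genes are named as members, as 27 pathway genes, as the 3 genes most correlated with each member, or as leading genes of clusters and markers of cell types. A further marker gene is not reported here. Shares over all genes leave out mitochondrial and ribosomal protein genes. Members and lists were chosen with earlier results of these data known. Positions come from GENCODE vM21 and promoters from RefSeq. Scripts used Python 3.11.15, pandas 2.3.3, scipy 1.17.1 and numpy 2.4.6. The arithmetic of ratios and intervals was tested on simulated Poisson counts, which hold no spread between cells or libraries.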

Additional observations from a re-analysis of the deposited data

Results flagged for a closer look

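Pf4 differed between the days in opposite directions in 2 cell types, under the settings of the report. In neutrophil-like cells its log2 ratio, day 3 over day 1, was 3.25, and in monocyte/macrophage-like cells it was -1.24. The first turned to -4.39 with each library clustered on its own, -3.85 with cells named by their highest marker score and -0.49 without cells carrying monocyte/macrophage markers. With 1 library per day the difference between the cell types was not tested. The 35 neutrophil-like cells of day 3 that carried monocyte/macrophage markers held 98.1% of the Pf4 UMIs of their type, and the median ratio of these markers between the cell types, 37.7%, times the Pf4 level of monocyte/macrophage-like cells is 949 CPM, beside 1041 CPM measured. On day 1 the same product was 155 CPM, beside 110 CPM measured. The part of these cells in the result was not tested.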

How the results depend on the processing

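No paired analysis was possible because each day is 1 library of other mice. The 15 ratios of a member in a cell type that were at least 2-fold kept their direction in 199 of 204 values under alternatives, and 194 were still at least 2-fold. The reversed ones were in neutrophil-like cells. The log2 ratio of Cxcl5 was 0.60 with doublets removed and 0.68 with 20 PCs, and that of Pf4 was -4.39 with each library clustered on its own, -3.85 with cells named by their highest marker score and -0.49 without cells carrying monocyte/macrophage markers. Cxcl2 in these cells ranged from -0.89 to 0.60. Of 18 pairs of member and cell type, 14 were lower and 1 higher by at least 2-fold. The lower pairs stand beside 5.01%, 19.9% and 8.12% of all genes in monocyte/macrophage-like, neutrophil-like and fibroblast/FAP-like cells. Of these pairs 3, Cxcl5 and Ppbp in neutrophil-like and Cxcl5 in monocyte/macrophage-like cells, rest on day 3 levels not told apart from free RNA. In fibroblast/FAP-like cells without monocyte/macrophage markers the day 1 level of Cxcl2 was not told apart from free RNA. Ppbp rested there on 24 and 8 UMIs. With 20 PCs 8 were lower, since fibroblast/FAP-like cells of day 1 were unnamed there and Cxcl5 reversed in neutrophil-like cells, and without the 10% of cells with most UMIs of the gene, an alternative chosen after seeing the data like the one without marker-carrying cells and the one without the Ifitm6-led cluster, 8 were lower and 2 higher. None was higher with cells called from 10% of the 99th percentile of UMIs, log-normalization, separate clustering, naming by score or without marker-carrying cells, which is 0 pairs each. The summed UMIs of day 1 held by monocyte/macrophage-like and neutrophil-like cells, 69.5% and 15.4%, became 69.3% and 15.7% with a mitochondrial limit of 15%, 77.0% and 21.4% with at least 200 genes per 1000 UMIs, 62.8% and 2.81% with the other cell call, 70.8% and 16.7% with doublets removed, 73.0% and 14.8% with log-normalization, 71.0% and 15.5% with 20 PCs, 71.8% and 15.1% with separate clustering, and 73.2% and 17.8% with naming by score. The first was 70.9% with free RNA subtracted and 68.3% without the Ifitm6-led cluster, and the second 14.3% without marker-carrying cells. Subtracting free RNA gave no ratio in 2 cases, and leaving out the top cells in 3, where fewer than 3 UMIs remained. The causes were not tested. Depth limits Cxcl5 and Ppbp in neutrophil-like cells, where 5 and 1 UMIs were left on day 3.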

Other observations

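The unnamed H2-Eb1-led cluster held cells with and without dendritic cell markers other than Fscn1. On day 1 Cxcl2 stood at 6856 CPM in the 124 cells with such a marker and at 16182 CPM in the 369 without, and Pf4 at 1120 and 2456 CPM. On day 3 the 236 cells with a marker held Cxcl2 at 1379 CPM and Pf4 at 200.3 CPM.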
